A study of Mus musculus with 32 samples.

Results

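The Zfp genes were taken as the protein-coding genes in the data whose mouse symbol is Zfp followed by a number, with names and classes from GENCODE M21 on mm10. The rule kept 383 genes out of 25059 in all, 18640 of them protein-coding, and it used no measured value. Most encode proteins built from repeated C2H2 zinc fingers, short loops held by a zinc ion that read DNA or bind RNA. The symbol is not a family: 18 of the 383 had no C2H2 match in their translated coding sequence, among them the CCCH-type RNA-binding proteins Zfp36, Zfp36l1 and Zfp36l2.

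Zinc finger genes with a KRAB domain encode repressors that recruit the corepressor Trim28 to silence transposable elements and imprinted loci, and they multiplied by tandem duplication, which leaves neighbouring copies alike in sequence. Cisplatin links adjacent guanines on 1 DNA strand, mainly at GG. Nucleotide excision repair cuts such an adduct out as a short oligonucleotide, and in its transcription-coupled form an RNA polymerase stalled on the transcribed strand (TS) starts that repair, so the TS of an active gene is cleared before the non-transcribed strand (NTS).

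The study injected female C57BL/6J mice aged 6 to 7 months with cisplatin at 10 mg/kg into the peritoneum at zeitgeber time (ZT) 1, and control mice with saline. Organs were taken at ZT 5, that is 4 h later, while the sample labels give 2 h. Kidney, liver, lung and spleen were each measured with 2 Damage-seq and 2 XR-seq libraries from cisplatin-treated mice, and with 2 control and 2 cisplatin RNA-seq libraries, 32 libraries in all. Damage-seq reads where adducts remain at one time point, XR-seq reads the excised oligonucleotides, and no library of either assay came from untreated mice.

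Reads on genes ranged from 1571167 to 6441367 per Damage-seq library, from 10658675 to 59779770 per XR-seq library and from 15619474 to 162270280 per RNA-seq library. The markers of each organ were highest in the libraries of that organ. The p53 target Cdkn1a was higher in every cisplatin library than in the controls of its organ. The 2 control libraries of lung, and likewise the 2 of spleen, differed far less than the other RNA-seq pairs. Their index was 2.75 in lung and 2.98 in spleen, where 1 is read sampling alone and the other pairs gave 39.3 to 349. Each of these 2 pairs was therefore summed and counted as 1 sample. Summed markers of the exocrine pancreas reached 1063 to 1506 counts-per-million units (CPM, reads scaled to the reads on genes of a library) in the cisplatin spleen libraries against 0.258 to 0.295 CPM in the controls. In lung the B-cell markers summed to 320 to 328 CPM in the controls and 71.9 to 98.5 CPM with cisplatin, and the T-cell markers to 122 to 128 CPM and 28.5 to 34.1 CPM.

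A KRAB pattern was found in the translated coding sequence of 225 of the 383 Zfp genes. The median gene carried 10 C2H2 fingers, 12 with KRAB and 7 without, and Zfp142 carried 36. In 31 clusters of at least 3 members lay 200 genes (52.2%), which held 74.7% of the KRAB genes and 20.3% of the others. The largest, chr13:67038596-67827002 (mm10), ran from Zfp712 to Zfp273 and held 22 members, all with KRAB. The next, chr17:21383748-22456689, held 18 members, again all with KRAB, and chromosome 7 alone carried 91 members.

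Duplication has a bearing on what the reads could show. The share of sampled 27-base windows found once in the genome had a median of 90% over the Zfp genes, 83.3% with KRAB, and 93.3% over other protein-coding genes. It lay under 50% in 47 Zfp genes (12.3%), 43 of them KRAB genes, against 2.65% of other protein-coding genes. The Zfp genes had a median length of 17371 bp against 20734 bp. Their GG sites were about as dense as elsewhere, with 53.5 (TS) and 54.4 (NTS) per kb where other protein-coding genes had 54.4 and 55.0.

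The 250 bases before the RefSeq start (GRCm38.p6) of 5 members with large RNA changes are printed, with each GG of the printed, coding strand in capitals; a GG on the other strand reads cc. They show how the sites at which cisplatin binds fall on either strand of genes that the RNA results turn on. Zfp36 rose 6.00-fold in kidney, Zfp948 and Zfp941 are KRAB genes that rose there, Zfp385b fell there, and Zfp423 fell in lung. The positions are chr7:28379229-28379478 (minus strand) for Zfp36, chr17:21566728-21566977 (plus) for Zfp948, chr7:140822179-140822428 (minus) for Zfp941, chr2:77816817-77817066 (minus) for Zfp385b and chr8:87959596-87959845 (minus) for Zfp423.
Zfp36: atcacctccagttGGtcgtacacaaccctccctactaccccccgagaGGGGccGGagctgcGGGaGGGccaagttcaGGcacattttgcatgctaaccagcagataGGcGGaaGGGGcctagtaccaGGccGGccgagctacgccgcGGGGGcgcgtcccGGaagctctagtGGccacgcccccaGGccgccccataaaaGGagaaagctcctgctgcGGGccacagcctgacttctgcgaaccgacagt
Zfp948: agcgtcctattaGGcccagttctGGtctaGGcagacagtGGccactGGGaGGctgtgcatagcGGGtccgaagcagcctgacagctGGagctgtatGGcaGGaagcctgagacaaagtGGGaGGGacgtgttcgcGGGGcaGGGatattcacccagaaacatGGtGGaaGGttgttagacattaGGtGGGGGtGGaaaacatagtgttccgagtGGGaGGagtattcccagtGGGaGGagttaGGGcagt
Zfp941: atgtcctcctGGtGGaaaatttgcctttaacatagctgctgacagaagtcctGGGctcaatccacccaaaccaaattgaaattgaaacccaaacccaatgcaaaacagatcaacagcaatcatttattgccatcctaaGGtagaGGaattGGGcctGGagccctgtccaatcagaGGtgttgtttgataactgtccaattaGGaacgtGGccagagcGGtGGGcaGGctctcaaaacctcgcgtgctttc
Zfp385b: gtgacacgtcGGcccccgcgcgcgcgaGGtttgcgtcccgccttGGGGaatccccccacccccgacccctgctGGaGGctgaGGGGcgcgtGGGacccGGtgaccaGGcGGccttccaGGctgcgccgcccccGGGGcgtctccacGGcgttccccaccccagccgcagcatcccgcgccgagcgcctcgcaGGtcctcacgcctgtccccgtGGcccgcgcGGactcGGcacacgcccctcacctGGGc
Zfp423: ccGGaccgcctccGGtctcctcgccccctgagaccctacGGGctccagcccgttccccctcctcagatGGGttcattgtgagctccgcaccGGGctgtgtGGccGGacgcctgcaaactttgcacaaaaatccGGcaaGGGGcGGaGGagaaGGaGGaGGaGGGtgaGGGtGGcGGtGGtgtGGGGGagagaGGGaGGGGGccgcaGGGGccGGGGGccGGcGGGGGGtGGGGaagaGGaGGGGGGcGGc
The Zfp423 sequence held 59 GG on the printed strand and 27 on the other, and that of Zfp385b the reverse order, 26 and 52. Zfp36 had 27 and 34, Zfp948 38 and 12, and Zfp941 16 and 21. The RefSeq starts of Zfp36 and Zfp385b lay 1025 and 2823 bp from the GENCODE start of the gene.

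Of 315 member promoters in the RefSeq table (250 bases before to 50 after the start, both strands searched), the E-box CACGTG was in 7.30% against 7.24% of 27025 promoters of all genes. The CRE palindrome TGACGTCA was in 3.49% against 1.88%, TCGCGA in 5.08% against 2.58% and TATAAA in 6.35% against 14.2%. TCGCGA was in 9.24% of promoters of members without KRAB and 2.55% of those with KRAB. These are matches of letters in a window and no sign of binding.

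The levels of untreated organs were compared first, as RPKM (CPM per kilobase of exon). Zfp genes were lowly to moderately transcribed. Their median RPKM in the 2 control libraries was 2.62 and 2.76 for spleen, 2.07 and 2.16 for lung, 1.40 and 2.15 for kidney, and 0.696 and 1.17 for liver. Other protein-coding genes had medians of 2.72 to 2.73, 3.35, 2.23 to 2.50 and 0.875 to 1.18 in the same order. KRAB genes lay below the rest in every organ, with 0.928 to 1.62 against 2.59 to 3.12 in kidney and 2.16 to 2.36 against 3.90 to 4.00 in spleen. All Zfp genes together took 0.898% to 0.911% of the reads in spleen and 0.261% to 0.377% in liver. In bulk tissue a smaller number of cells of a type and less RNA per cell cannot be told apart.

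The most abundant members were not KRAB genes. Zfp706, a small protein of 76 residues with 1 C2H2 finger, led in kidney (69.0 and 64.4 RPKM), liver (24.2 and 25.1) and lung (40.1 and 42.1), and had 42.5 and 42.8 in spleen. Zfp36l2 led in spleen with 48.4 and 46.9 RPKM. Zfp207, which binds the spindle checkpoint protein Bub3, had 39.2 and 40.8 RPKM in control spleen and 7.62 to 18.4 in the controls of the other organs. The other members at the top of an organ were Zfp503 and Zfp768 (18.1 and 21.4 RPKM) in kidney, Zfp36l1 and Zfp598 (15.6 and 9.89 RPKM) in liver, and Zfp36l1 and Zfp36l2 in lung.

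Levels differed among the 4 untreated organs for 116 of 364 Zfp genes tested (31.9%), where 63.9% of all genes passed (edgeR quasi-likelihood F test, Benjamini-Hochberg adjusted p below 0.05). The share was 22.8% of KRAB genes (49 of 215) and 45.0% of the others (67 of 149). Of the 116 members, 56 had their highest level in spleen, 27 in kidney, 27 in lung and 6 in liver, and 77 had their lowest in liver. As shares these were 48.3%, 23.3%, 23.3% and 5.17%, where 33.2%, 27.6%, 26.4% and 12.8% of all called genes were highest in those organs. The count rests on single libraries: it was 33 without kidney control replicate 1 and 67 without kidney control replicate 2, and 251 when each lung and spleen control library counted as a replicate.

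The 3 members with the smallest adjusted p were Zfp503, Zfp385b and Zfp618. Zfp503, a NET-type transcriptional repressor of development, had 39.1 and 38.7 RPKM in kidney, 18.8 and 20.04 in lung, 3.37 and 3.52 in spleen, and 1.19 and 1.25 in liver (adjusted p = 1.64e-05, edgeR). Zfp385b, with fingers of the double-stranded-RNA type, had 2.21 and 1.84 RPKM in liver, 1.27 and 1.09 in kidney, 0.281 and 0.425 in lung, and 0.0314 and 0.0344 in spleen (3.63e-05). Zfp618 had 2.94 and 2.40 RPKM in kidney and at most 0.413 in any control library elsewhere (3.73e-05). The organs did not overlap for Zfp503 or Zfp385b, and for Zfp618 kidney lay above the rest.

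Members of named function also had clear patterns. Zfp365, a p53 target with a role at fragile sites, had 7.75 and 7.54 RPKM in lung, 0.412 and 0.448 in spleen and at most 0.0628 in kidney and liver (edgeR adjusted p = 4.76e-05). Zfp57, which protects imprints, had 2.90 and 3.66 RPKM in lung and 0.0544 to 0.684 elsewhere (0.0117). Zfp385a, a cofactor of p53, was highest in spleen with 17.8 and 15.7 RPKM and had 2.41 to 8.22 elsewhere (0.00244). By contrast, the values of Zfp91, a ubiquitin ligase, ran from 11.4 to 24.5 RPKM over all organs (0.504), and those of Zfp809, a silencer of retroviral DNA, from 3.92 to 12.2 (0.799).

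Cisplatin changed the RNA of 14 of 343 Zfp genes in kidney: 8 rose (2.33%, against 2.4% of all genes tested) and 6 fell (1.75%, against 2.65%). The test was edgeR against a log2 fold change of 0.4, with an adjusted p below 0.05 over all genes. All 6 KRAB genes that passed rose (2.99% of 201 tested), and all 6 genes that fell lacked KRAB (4.23% of 142 tested). The difference between these groups was not tested. The median log2 fold change over the tested members was 0.06 and over all genes -0.003. Counts rested on the libraries: 49 members passed without control replicate 1, 25 without control replicate 2, and 1, Zfp36, without cisplatin replicate 1.

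Zfp36 had the smallest adjusted p of the risers. It encodes tristetraprolin, which binds AU-rich messages and brings the CCR4-NOT deadenylase to them. The 2 control libraries had 6.35 and 7.12 RPKM and the 2 cisplatin libraries 37.7 and 40.2, so the groups stood well apart. The rise was 2.59 ± 0.19 on the log2 scale (SE), or 6.00-fold (edgeR adjusted p = 0.00387). It passed under each kidney alternative. An antisense gene, Gm44710, covers 36.7% of Zfp36 (chr7:28376784-28380253), and reads from the 2 could mix if the counting did not use strand.

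Liver had 12.2 and 12.8 RPKM in the controls and 11.5 and 12.9 with cisplatin, which overlap. Lung had 19.9 and 18.3 against 30.5 and 33.4 RPKM, a log2 difference of 0.77 ± 0.17 that missed the threshold (edgeR adjusted p = 0.197). Spleen had 37.9 and 36.1 against 45.0 and 43.8 RPKM, 0.30 ± 0.17. The cisplatin libraries of kidney thus reached the range of untreated spleen, while control kidney lay below the 3 other organs. Zfp36 was the 1 member of 365 whose response differed among organs in its own test (edgeR interaction, adjusted p = 0.0433), where 0.209% of all genes passed. That call was lost in 9 of the 16 fits that left out 1 library, among them each of the 4 without a kidney library, and with RLE normalization (0.0825).

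The relatives of Zfp36 showed smaller values. Zfp36l1 had 15.9 and 19.95 RPKM in control kidney and 32.0 and 45.8 with cisplatin, 1.18 ± 0.26 on the log2 scale, and missed the threshold (edgeR adjusted p = 0.0870). Zfp36l2 had 18.6 and 19.9 against 28.7 and 30.5 RPKM, 0.68 ± 0.17 (0.191). In spleen the 2 cisplatin libraries of Zfp36l2 were far apart, at 57.1 and 99.5 RPKM against 48.4 and 46.9 in the controls. Zfp36l3 was at 0 in every kidney and liver library and in the lung controls, and was not tested in kidney.

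**Figure D1:**
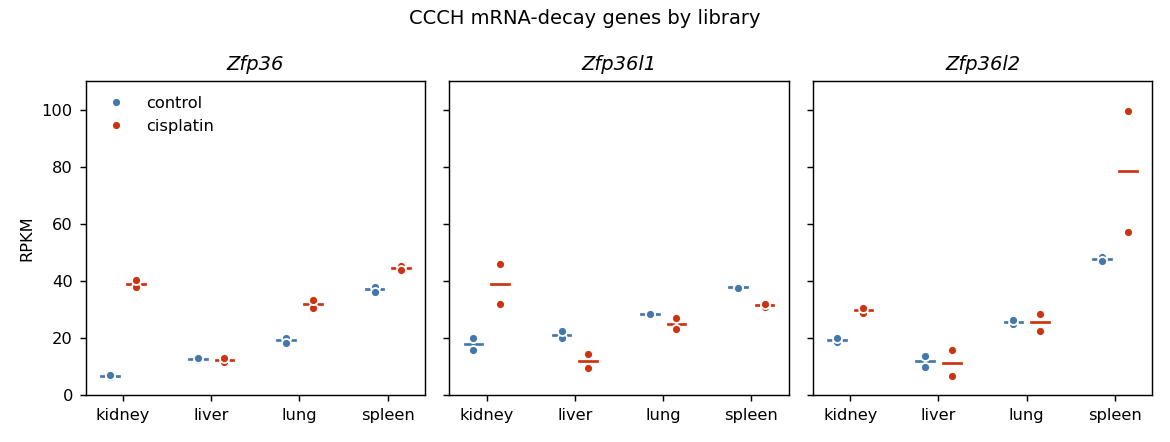
RPKM (linear axis from 0) of Zfp36, Zfp36l1 and Zfp36l2 in each RNA-seq library of 4 organs; blue points are control and red points cisplatin libraries, and bars are means of 2. Zfp36 in kidney went from 6.35 and 7.12 to 37.7 and 40.2, while in liver the 2 groups overlap.

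The partners of the CCCH proteins were counted from a list of 14 CCR4-NOT subunits and adaptors. In kidney 3 of the 14 rose (21.4%, where 2.4% of all genes rose) and none fell, and none passed the test in the other organs. The 3 were adaptors or antiproliferative proteins that bind the deadenylase: Btg2 rose from 10.6 and 11.5 to 80.5 and 85.3 RPKM, Tob2 from 8.90 and 10.0 to 28.4 and 26.1, and Tob1 from 58.2 and 37.8 to 143 and 105. No catalytic or scaffold subunit passed. The nearest of these, Cnot6l, was lower with cisplatin in kidney, at 11.8 and 9.10 against 5.03 and 4.94 RPKM (edgeR adjusted p = 0.0548).

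Among the KRAB genes that rose, Zfp948 had 1.93 and 0.959 RPKM in control kidney and 13.8 and 5.79 with cisplatin, a log2 change of 2.85 ± 0.50 (edgeR adjusted p = 0.0361). Zfp941 had 0.406 and 0.559 against 2.43 and 1.78 RPKM, 2.14 ± 0.33 (0.0266). Zfp867 had 2.49 and 1.45 against 7.30 and 4.99 RPKM, 1.72 ± 0.32 (0.0460). Their control and cisplatin libraries did not overlap, though replicates of Zfp948 differed by more than those of Zfp36. Zfp747 had 1.89 and 2.33 against 7.64 and 5.48 RPKM, 1.67 ± 0.28 (0.0350).

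The other risers fell outside the naming rule and are named after their values were seen. They were Zfp764 (1.47 ± 0.21), Zfp954 (1.30 ± 0.19) and Zfp622 (1.45 ± 0.18), a factor of large ribosomal subunit maturation and the only one of the 3 without KRAB. Zfp747 and Zfp764 lie in 1 cluster on chromosome 7, with 36.7% and 46.7% of their windows unique, so the split of reads between near-identical copies is uncertain. A gene on its own strand, Gm45785, covers 27.8% of Zfp941. Zfp622 had 4.86 and 5.30 RPKM against 14.4 and 12.4.

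The 5 largest falls in kidney were all in genes over 100 kb. Zfp385b (409006 bp) went from 1.27 and 1.09 RPKM to 0.148 and 0.315, -2.21 ± 0.41 (edgeR adjusted p = 0.0436). Zfp618 (174136 bp) went from 2.94 and 2.40 to 0.616 and 0.686 RPKM, -1.96 ± 0.22 (0.0147). Both are genes with marked organ differences without treatment, and kidney is among their higher organs. Zfp827 (165330 bp), which recruits the NuRD remodeller to telomeres, fell from 2.13 and 2.58 to 0.795 and 0.734 RPKM, -1.58 ± 0.24 (0.0288).

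Zfp609 (135174 bp), which binds the cohesin loader Nipbl, went from 4.06 and 5.11 to 1.60 and 1.56 RPKM, -1.49 ± 0.22 (edgeR adjusted p = 0.0281). Zfp704 (183066 bp) went from 6.69 and 7.85 to 2.95 and 2.80 RPKM, -1.28 ± 0.18 (0.0278). In none of these genes did a cisplatin library reach the lowest control library. The last gene to fall, Zfp395 (40542 bp), is outside the naming rule and went from 6.63 and 6.70 to 2.76 and 2.88 RPKM, -1.18 ± 0.19 (0.0417).

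**Figure D2:**
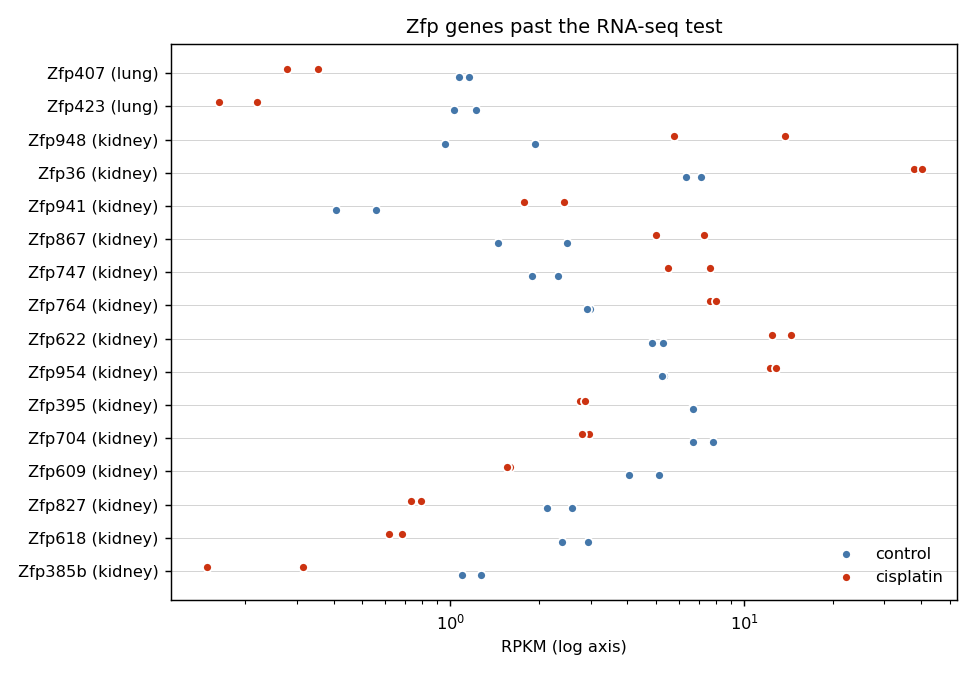
RPKM (log axis) of the 14 Zfp genes past the test in kidney and the 2 in lung, 1 row per gene, with 2 control (blue) and 2 cisplatin (red) libraries each. Control and cisplatin points do not overlap in any row, and Zfp948 shows the widest spread between cisplatin libraries, 13.8 and 5.79.

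RNA changes were lower in longer genes. In kidney the median log2 fold change was 0.22 over 64 members under 10 kb and -0.61 over 37 members of 50 kb or more, where 5 fell and none rose. Other protein-coding genes gave 0.26 and -0.49, and of the 4032 of 50 kb or more 363 fell and 13 rose. In liver the corresponding medians were 0.46 and -0.53, against 0.39 and -0.54. In lung they were 0.29 and -0.18, against 0.15 and -0.30, and in spleen 0.01 and -0.35, against 0.22 and -0.19. Zfp genes of the same length class stood higher than other genes in lung and lower in spleen, in all 4 classes.

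**Figure D3:**
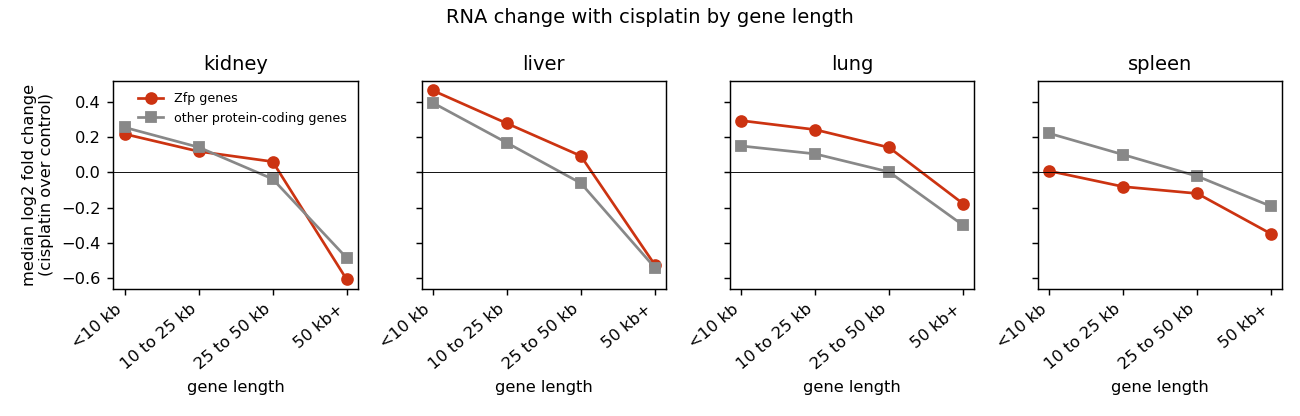
Median log2 fold change of RNA, cisplatin over control, in 4 classes of gene length for Zfp genes (red circles) and other protein-coding genes (grey squares) in each organ. Medians decline with length in all panels, in kidney from 0.22 to -0.61 for Zfp genes.

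In lung no member rose, where 0.132% of all genes did, and 2 of 362 fell (0.552%, against 1.96%). Zfp423, a protein of 27 C2H2 fingers that determines fat cell precursors, had 1.22 and 1.03 RPKM in the controls and 0.162 and 0.220 with cisplatin, -2.49 ± 0.36 (edgeR adjusted p = 0.0322). Zfp407, with 22 fingers, had 1.07 and 1.15 against 0.277 and 0.354 RPKM, -1.84 ± 0.28 (0.0385). Both are long, 297786 and 461699 bp. Neither passed in 1 fit over the 4 organs, with all libraries or without lung cisplatin replicate 1 or 2. Without lung control replicate 2 only Zfp423 passed. The median log2 change was 0.19 over members and 0.03 over all genes.

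Zfp521, a multi-finger relative of Zfp423 known from blood and neural progenitors, had 1.47 and 1.64 RPKM in control lung and 0.526 and 0.609 with cisplatin, -1.49 ± 0.28, and missed the threshold (edgeR adjusted p = 0.0745). Zfp407 was also lower in each other organ, with -1.26 ± 0.26 in kidney (0.0695), -2.50 ± 0.56 in liver (0.191) and -0.81 ± 0.25 in spleen, none past the threshold. In liver Zfp407 did pass with DESeq2, in 1 fit over the 4 organs and with same-numbered libraries paired. Zfp365, the p53 target, had 8.00 and 7.75 RPKM in treated lung, as in the controls. The fall in the B-cell and T-cell markers of lung given above moved with these values, and its part in them was not tested.

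In liver 0 of 331 members passed, as did 0% of all genes, and DESeq2 called 1 member, Zfp407. An unadjusted p below 0.05 by edgeR was found for 18 of the 331 members and for 1287 of 13868 genes in all. The median log2 change was 0.22 over members and 0.03 over all genes. With liver cisplatin replicate 1 left out 24 members passed, and with replicate 2 left out 2, Zfp407 and Zfp811. In spleen 0 of 359 members passed, against 0.181% of all genes, and DESeq2 called 0. There 5 of the 359 members and 768 of 17686 genes in all had an unadjusted p below 0.05 by edgeR. The spleen median was -0.11 over members and 0.02 over all genes, and the pancreatic markers above moved with treatment in the same libraries; their part was not tested.

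By role, the 5 measured silencers of retroelements and imprints (Zfp57, Zfp445, Zfp568, Zfp809 and Zfp932) had no member past the test in any organ. With same-numbered libraries paired, an alternative given at the end, Zfp445 and Zfp809 passed in kidney. In kidney Zfp809 had 9.51 and 6.67 against 14.9 and 11.04 RPKM and Zfp57 0.684 and 0.134 against 0.896 and 0.312. Among all genes 5.05% passed in kidney and 2.09% in lung. Of the developmental or NET-type genes 0 of 7 passed in kidney and 1 of 8 in lung, Zfp423. Of the ubiquitin, SUMO or ribosome group 1 of 5 passed in kidney, Zfp622, and of those with double-stranded-RNA-type fingers or a link to p53 1 of 4, Zfp385b. Zfp598, which marks collided ribosomes with ubiquitin, had 10.9 and 7.80 against 18.9 and 12.6 RPKM in kidney (edgeR adjusted p = 0.216), and Zfp91 17.5 and 14.97 against 17.4 and 16.5. Zfp708 and Zfp640 were not analysed here.

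The corepressors on which KRAB proteins depend gave no call: 0 of 16 passed in each organ, where 5.05% of all genes passed in kidney and 2.09% in lung. Trim28, the hub of that list, had 23.3 and 25.4 RPKM in control kidney and 42.0 and 39.2 with cisplatin (edgeR adjusted p = 0.113). The groups did not overlap, but the difference did not pass the test against 0.4. Other corepressors were lower: Atf7ip in kidney went from 2.74 and 2.96 to 1.45 and 1.56 RPKM (edgeR adjusted p = 0.101). In lung Uhrf1 went from 5.02 and 4.68 to 2.06 and 1.72 RPKM (0.0760). The median log2 fold change over the list was -0.005 in kidney and -0.08 in lung.

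Repair was then compared between strands, in the 340 of 383 members that met the gene filters of the study (of 16502 genes in all): 10 GG or more on at least 1 strand, under 100000 bp, and at least 20 reads in each assay. Of the other members 23 were over 100 kb and 22 had too few reads, some of them on both counts. Reads were divided by GG sites of the strand and by the library's reads. In XR-seq the TS was above the NTS in 285 members in kidney (83.8%, against 58.3% of all genes), 269 in liver (79.1%, against 52%), 302 in lung (88.8%, against 61%) and 295 in spleen (86.8%, against 59.4%), by the edgeR quasi-likelihood test. Of protein-coding genes alone, 65.0%, 57.7%, 67.9% and 65.7% had the TS above the NTS in the same order. The TS was below the NTS in 1, 2, 3 and 1 members in the same order, where 6.19%, 7.19%, 7.34% and 7.17% of all genes were. In all 4 organs 255 members were called higher on the TS (75%, against 45.8% of all genes), and 31 in none (9.12%, against 31.4%).

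The liver calls depended on its libraries: 271 members were called in either direction, 117 without liver replicate 1 and 141 without liver replicate 2. The median log2 ratio of TS over NTS over the members was 4.17 (kidney), 3.69 (liver), 4.95 for lung and 4.72 for spleen. Other protein-coding genes had 2.91, 2.30, 3.44 and 3.31. With a floor of 3 reads where the NTS had none, the members' medians were 3.95, 3.67, 4.81 and 4.59, against 2.69, 2.26, 3.34 and 3.13. The share of members called and the median ratio were thus both above those of the whole gene set in each organ.

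Pooled reads gave the same order in each library. The TS over NTS ratio of all members was 8.33 and 8.98 in kidney against 6.06 and 6.31 for other protein-coding genes. It was 7.83 and 6.64 against 5.45 and 4.90 in liver, 13.2 and 13.8 against 9.59 and 9.26 in lung, and 10.8 and 11.6 against 7.53 and 7.56 in spleen. KRAB genes had the highest pooled ratios, 10.5 and 10.9 in kidney and 17.6 and 17.8 in lung, with 7.35 and 8.13 and 11.3 and 11.9 for members without KRAB. The difference lay in the NTS: in kidney KRAB genes had 2.04 and 2.02 NTS CPM per 1000 GG, members without KRAB 5.24 and 5.09, and other protein-coding genes 4.19 and 4.20. On the TS the KRAB genes were not higher, with 21.5 and 22 against 38.5 and 41.4 for members without KRAB and 25.4 and 26.5 for other genes.

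**Figure D4:**
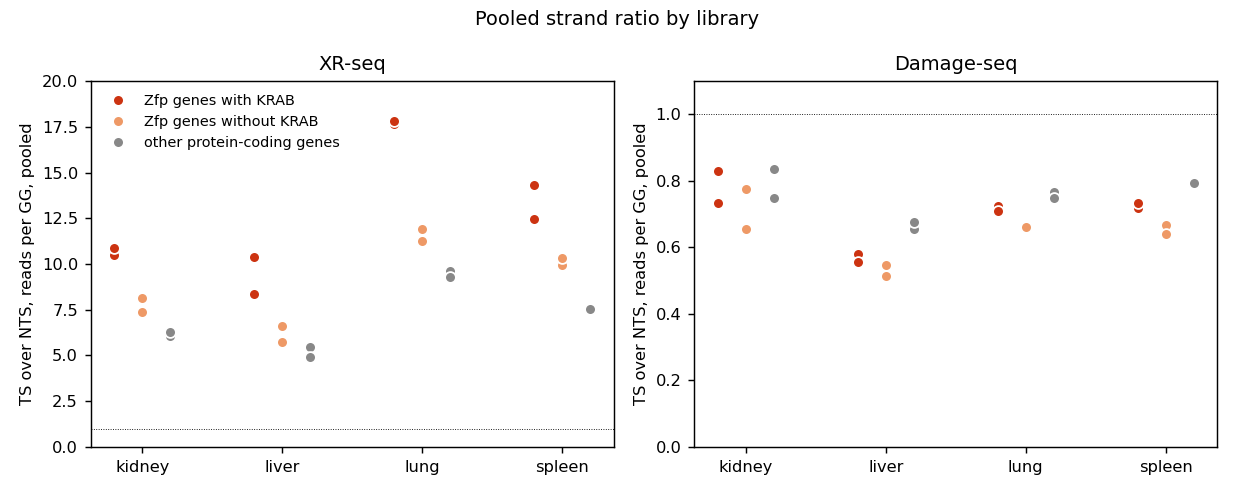
Pooled TS over NTS ratio of reads per GG in each XR-seq (left) and Damage-seq (right) library of 4 organs, for Zfp genes with KRAB (red), without KRAB (orange) and other protein-coding genes (grey); the dotted line is 1 and both axes start at 0. XR-seq ratios lie above 1 in all libraries, up to 17.8 for KRAB genes in lung, and Damage-seq ratios lie below 1.

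Low NTS reads go together with poor uniqueness. In kidney, members under 50% unique (27 genes) had 0.242 and 0.174 NTS CPM per 1000 GG, those of 50 to 80% (62 genes) 1.13 and 1.27, and those of 80% or more (251 genes) 4.45 and 4.32. Other genes gave 0.503 and 0.605, 2.37 and 2.35, and 4.34 and 4.34 in these classes. Within the class of 80% or more the median log2 ratios of the members were 3.94, 3.62, 4.79 and 4.57 in kidney, liver, lung and spleen, and those of other protein-coding genes 2.91, 2.29, 3.46 and 3.31. The gap in the medians was thus present among mappable genes, while the pooled NTS level there was that of other genes. Among the 234 members with no gene on the opposite strand the medians were 4.41, 3.86, 5.18 and 4.98. Other protein-coding genes were not split by overlap, so these medians have no counterpart.

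The strand ratio was next set beside the RNA level in control libraries. In the lowest class, under 0.5 RPKM, members had median log2 ratios of 2.73 in kidney (58 genes), 3.50 in liver (101), 3.81 in lung (43) and 3.28 in spleen (49), and other protein-coding genes 0.49, 0.53, 0.52 and 0.61. At 1 to 2 RPKM the members had 5.25, 3.75, 5.77 and 4.98 against 2.98, 3.49, 2.82 and 3.21. At 5 to 20 RPKM the medians came near each other, at 3.73, 2.62, 4.79 and 4.93 against 3.58, 3.003, 4.39 and 4.32. At 20 RPKM and over the members, only 2, 2, 6 and 9 genes, had 1.88, 2.40, 2.94 and 3.11 against 3.35, 2.55, 4.13 and 3.96, below the other genes for each organ. Members with little mature RNA thus still had more repair reads on the TS than on the NTS. RNA levels within a class were not matched, and in kidney 43 of the 58 members under 0.5 RPKM were KRAB genes. The order of the 2 groups turned in the highest class, and in liver already at 2 to 5 RPKM (3.28 against 3.39).

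**Figure D5:**
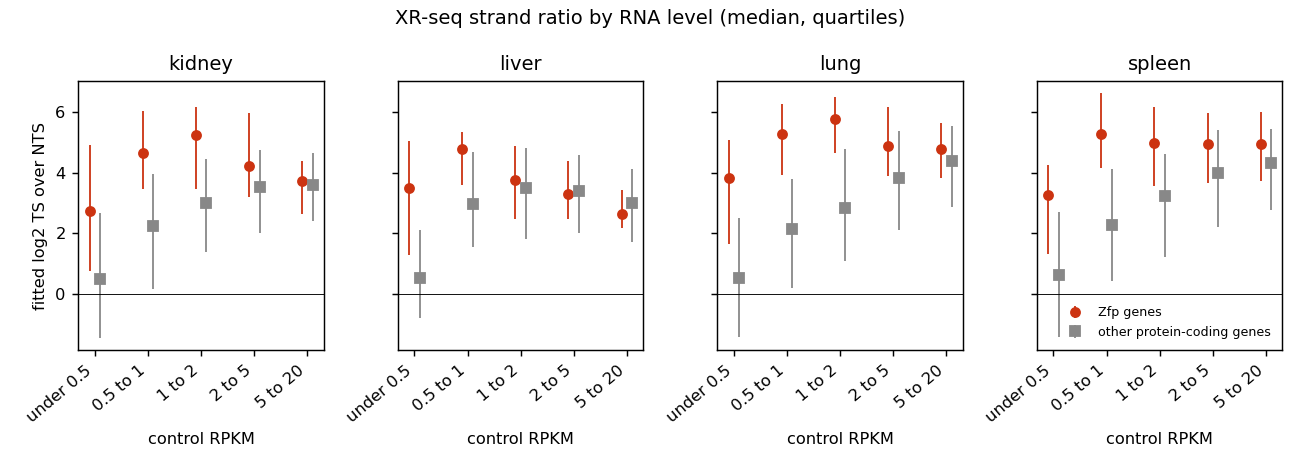
Fitted log2 ratio of TS over NTS in XR-seq by class of control RPKM, as medians with quartile bars, for Zfp genes (red circles) and other protein-coding genes (grey squares) in each organ. Below 0.5 RPKM the Zfp medians are 2.73 to 3.81 and those of other genes 0.49 to 0.61; at 5 to 20 RPKM the 2 lie closer. The class of 20 RPKM and over, with 2 to 9 Zfp genes, is not plotted.

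Several members had no NTS read at all, so their ratios are lower bounds against 3 NTS reads over both libraries. Zfp932, a KRAB gene known to repress endogenous retroviruses, had 147 and 62 TS reads and 0 NTS reads in kidney, at least 71.1-fold higher on the TS. Zfp93 had 175 and 681 against 0 in spleen, at least 242-fold higher, and Zfp825 82 and 442 against 0, at least 155-fold. In lung Zfp976 had 361 and 335 against 0, at least 238-fold higher, and Zfp442 292 and 295 against 0, at least 201-fold. These genes are KRAB genes of low uniqueness, from 18.3% (Zfp442) to 75% (Zfp93).

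Zfp52 had 147 and 183 TS reads and 0 and 1 NTS reads in kidney, a pooled ratio of 326 on a single NTS read. Zfp442 had 560 and 466 against 4 and 0 in liver, a ratio of 264. Zfp934 had 68 and 35 against 0 in liver, at least 34.7-fold higher, but 86.1% of it is covered by genes of its own strand. All of these passed the test, and none of the bounds measures the true ratio.

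At the other end, Zfp750, a regulator of epidermal differentiation, had 40 and 37 TS reads against 591 and 440 NTS reads in lung (log2 ratio -4.21 ± 0.63) and 0 and 40 against 221 and 669 in spleen (-5.50 ± 0.71). It lies wholly inside Tbcd on the opposite strand (chr11:121510978-121519333), so its NTS is the TS of Tbcd. Zfp473, a factor of histone message processing, had 173 and 176 against 432 and 369 in lung (-1.19 ± 0.39), with 13.5% of it under Vrk3. Zfp385c had 281 and 317 against 693 and 724 in liver (-1.16 ± 0.36).

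Zfp599 and Zfp382, both KRAB genes with no gene on the opposite strand, changed sign between organs. Zfp599 had 73 and 180 TS against 217 and 491 NTS reads in kidney (-1.63 ± 0.35, edgeR adjusted p = 0.00308). In spleen it had 101 and 526 against 55 and 227 (0.93 ± 0.35, 0.0399). Zfp382 had 299 and 186 TS against 527 and 694 NTS reads in liver (-1.32 ± 0.36, 0.0113), and 1968 and 1469 against 328 and 294 in lung (2.49 ± 0.36, 0.000276). The smallest ratios among TS-higher members in kidney and spleen were those of Zfp821 (731 and 1597 against 622 and 795 reads, 0.75 ± 0.25) and Zfp335, which acts in neural and T-cell development (1144 and 4111 against 738 and 2158, 0.80 ± 0.16).

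Of Zfp36, Zfp36l1 and Zfp36l2, Zfp36 had the lowest strand ratio in each organ. It had 381 and 1041 TS against 177 and 305 NTS reads in kidney, a pooled ratio of 2.09 (0.94 ± 0.36, edgeR adjusted p = 0.0481), and 1145 and 780 against 492 and 547 in lung, a ratio of 1.31 that did not pass (0.397). In liver it had 994 and 1419 against 281 and 249, a ratio of 3.22 (0.00414), and in spleen 206 and 641 against 54 and 194, a ratio of 2.42 (0.0118), both past the test. Zfp36l1 had ratios of 14.3, 11.01, 17.0 and 12.4 in kidney, liver, lung and spleen, and Zfp36l2 9.57, 4.82, 3.11 and 7.53. Antisense genes cover 94.4% of Zfp36l1 and 54.6% of Zfp36l2, and Gm44710 covers part of Zfp36, which bears on the NTS of each of these genes.

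The 8 genes whose RNA rose in kidney had fitted log2 ratios there from 0.94 in Zfp36 to 6.55 in Zfp948, around the member median of 4.17, and 7 of the 8 passed the test. Zfp954 had 2.25 and did not pass (edgeR adjusted p = 0.113). Zfp948 had 347 and 811 TS against 0 and 24 NTS reads, a ratio of 51.3, and Zfp941 384 and 515 against 0 and 27, a ratio of 38.2. By role, the TS was above the NTS in all 5 genes of the ubiquitin, SUMO or ribosome group in each organ, in all 4 tested developmental or NET-type genes in each organ, and in 4, 3, 5 and 5 of the 5 silencers for kidney, liver, lung and spleen. It was above in 2, 2, 3 and 3 of the 4 tested genes that have fingers of the double-stranded-RNA type or are linked to p53, with 1 below in liver, Zfp385c. Of the 4 CCCH genes 3 passed in each organ. Those counts are read beside the all-gene shares given above, 58.3%, 52%, 61% and 59.4%.

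Repair on the TS differed among organs for 165 of 340 members (48.5%), where 55.9% of all genes passed. Zfp831 had the smallest adjusted p: 28.6 and 29.0 TS CPM per 1000 GG in spleen and at most 1.15 in any library of the other organs (edgeR adjusted p = 1.75e-08). Its RNA in controls was 6.49 and 6.16 RPKM in spleen and at most 0.593 elsewhere. Zfp366, a regulator of dendritic cells, had 36.6 and 37.9 in lung, 12.6 and 10.5 in spleen, 4.78 and 6.49 in kidney, and 3.93 and 3.68 in liver (3.83e-08), with control RNA of 6.67 and 6.50 RPKM in lung and 6.09 and 6.17 in spleen. For Zfp366 repair in lung was thus above that in spleen at like RNA levels.

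Zfp287 had 36.9 and 30.2 TS CPM per 1000 GG in spleen, 32.5 and 34.8 in lung, 13.5 and 16 in kidney and 4.50 and 3.37 in liver (edgeR adjusted p = 6.56e-07). Spleen and lung overlapped, and kidney and liver followed in that order. Its control RNA was 1.46 and 1.51 RPKM in spleen, 0.834 and 0.960 in lung, 0.332 and 0.374 in kidney and 0.106 and 0.0864 in liver.

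Remaining damage was lower on the TS. In Damage-seq the TS was below the NTS in 77 members in kidney (22.6%, against 22.5% of all genes), 164 in liver (48.2%, against 35.2%), 109 in lung (32.1%, against 27.7%) and 47 in spleen (13.8%, against 13%). The TS was above the NTS in 1, 0, 4 and 1 members, where 0.388%, 1.07%, 1.51% and 0.545% of all genes were. The kidney and spleen shares were near the background. In either direction 78 members were called in kidney, 0 without kidney replicate 1 and 50 without kidney replicate 2. The liver calls went to 69 and 109 without liver replicates 1 and 2. The lung calls went from 113 to 74 without lung replicate 2, and the spleen calls from 48 to 15 and 10 without spleen replicates 1 and 2. DESeq2 called 12 members in kidney, 56 in lung and 18 in spleen.

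The median log2 ratio of TS over NTS over the members was lowest for liver, -1.02 against -0.66 for other protein-coding genes. It was -0.56 against -0.39 for lung, -0.54 against -0.37 for spleen and -0.41 against -0.33 for kidney. Pooled ratios were 0.551 and 0.552 in the 2 liver libraries against 0.656 and 0.675 for other genes. In kidney they were 0.689 and 0.801 against 0.747 and 0.836, so the 2 kidney replicates differed from each other by more than the gene groups did. Members with KRAB were called less often in kidney, 15.9% against 33.1% without KRAB, a difference that was not tested. Members without KRAB had the lower medians, -0.60, -1.21, -0.72 and -0.65, and KRAB genes -0.34, -0.96, -0.49 and -0.48. In XR-seq the order of the same groups was the reverse, with KRAB medians of 4.85, 4.27, 5.26 and 4.97 and 3.57, 2.96, 4.31 and 4.30 without KRAB. The KRAB genes also had less RNA. At 2 to 5 RPKM in controls their Damage-seq medians were -0.625, -1.49, -0.640 and -0.639 in kidney, liver, lung and spleen. All members of that class, KRAB genes included, had -0.625, -1.50, -0.641 and -0.777. A KRAB difference at like RNA levels was not tested.

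Damage on the TS below that on the NTS was called in all 4 organs for 21 members (6.18%, against 7.65% of all genes) and in none for 152 (44.7%, against 55.8%). The most uneven members were Zfp703, a NET-type developmental regulator, with 2 and 0 TS against 12 and 12 NTS reads in liver (-4.13 ± 0.87, edgeR adjusted p = 3.33e-05), and Zfp740 with 5 and 1 against 42 and 32 (-3.33 ± 0.52, 3.26e-08). In kidney they were Zfp869 with 2 and 3 against 32 and 10 (-2.95 ± 0.80) and Zfp263 with 7 and 5 against 26 and 29 (-1.93 ± 0.55). Reads per gene were few, so these ratios are wide. An antisense gene covers 63.1% of Zfp703.

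In lung Zfp871 had 10 and 2 TS against 40 and 67 NTS reads (-3.15 ± 0.46) and Zfp36l2 2 and 0 against 5 and 7 (-2.80 ± 1.12). In spleen Zfp553 had 1 and 1 against 8 and 9 (-3.03 ± 0.93) and Zfp260 2 and 1 against 9 and 12 (-2.85 ± 0.81). All 4 were lower on the TS in both libraries. Among calls in the same direction, the ratios nearest to 1 named by rule were those of Zfp961 in kidney (106 and 124 against 179 and 151 reads, -0.53 ± 0.19), Zfp217, a corepressor partner, in liver (39 and 37 against 89 and 54, -0.68 ± 0.25), Zfp950 in liver (118 and 62 against 174 and 124, -0.60 ± 0.18) and Zfp516, known from brown fat, in spleen (61 and 67 against 81 and 131, -0.56 ± 0.18).

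A few members had more damage on the TS. Zfp957 had 141 and 122 TS against 83 and 110 NTS reads in kidney (0.56 ± 0.20, edgeR adjusted p = 0.0275). In lung Zfp853 had 26 and 25 against 7 and 10 (1.54 ± 0.50, 0.0115) and Zfp459 45 and 66 against 31 and 33 (0.85 ± 0.33, 0.0444). Zfp991 had 4 and 5 against 0 in spleen, at least 2.90-fold higher, but 8.33% of its windows were unique and genes of both strands overlap it.

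Damage on the NTS, which transcription-coupled repair does not reach, differed among organs for 35 of 340 members (10.3%), where 12.9% of all genes passed. The count was 15 and 20 without kidney replicates 1 and 2, 21 without liver replicate 1, and 6 with DESeq2. The smallest adjusted p was that of Zfp771, named after its values were seen. It had 18.6 and 22.5 NTS CPM per 1000 GG in kidney, 12.7 and 10.5 in lung, 7.73 and 4.80 in liver, and 3.31 and 3.53 in spleen (edgeR adjusted p = 6.8e-05), from 191, 101, 33 and 10 reads. The organs did not overlap, but the spleen value rests on 10 reads, and no library of undamaged DNA was part of the comparison.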

How the data were processed

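Damage-seq and XR-seq (cisplatin only) and RNA-seq (control and cisplatin) were measured in 4 mouse organs, 2 libraries per group. The authors deposited whole-number read counts per gene, for Damage-seq and XR-seq on each strand. According to their methods, reads were trimmed with cutadapt and aligned with BWA to mm10, duplicates were removed with Picard, and reads with GG at the damage position were kept. RNA-seq used STAR and FeatureCounts. All count columns given were matched to a sample.

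RNA counts were tested with edgeR 4.0.16 (TMM, quasi-likelihood, against a log2 fold change of 0.4), within each organ, and in 1 fit for the interaction and for untreated organs. Strands were compared in 1 edgeR fit per assay, with the library as a term and offsets for depth and GG. P-values were adjusted by Benjamini-Hochberg over all genes tested, at 0.05. Alternatives were DESeq2 1.42.0, RLE normalization, no filter on low counts, a test against 0, 1 fit over the organs, no length limit, a minimum of 100 reads, the replicate block and leaving out each library. Tools ran in R 4.3.3 and Python 3.11.15, and were tested on simulated counts.

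Replicate pairs whose chi-square per degree of freedom was 3 or below were summed, which applied to the lung and spleen RNA controls; the lone sample is then assumed to vary like the others. Damage-seq pairs were not summed, although their indices of 1.43 to 3.11 were low as well at low depth. The study calls its replicates biological, but the labels do not tie libraries to separate mice, so p-values measure only the spread between these libraries, which may be technical. The SEs come from the edgeR fits and include the fitted spread between libraries, while the floors cover counting error only.

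The labels of control and cisplatin in lung and spleen RNA-seq were corrected by the submitters, and the present labels were used. KRAB and C2H2 patterns were searched in coding sequences of GENCODE M21 translated for 382 members, and uniqueness in 60 windows of 27 bases per gene. Clusters hold at least 3 members with gaps of at most 250000 bp.

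Members named with values were, per organ, the 5 largest rises and 5 largest falls past the RNA test, the 3 highest control levels, the 2 largest and 2 smallest strand ratios among called members of each assay, the 3 smallest adjusted p in the XR-seq organ test and the untreated organ test, and Zfp36, Zfp36l1, Zfp36l2, Zfp57, Zfp809, Zfp91, Zfp598, Zfp365, Zfp385a, Zfp423 and Zfp521. The members, lists and tests were chosen with earlier results of these data known.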

Additional observations from a re-analysis of the deposited data

Results flagged for a closer look

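The response of Zfp36 RNA to cisplatin differed among organs by the interaction test (edgeR quasi-likelihood, adjusted p = 0.0433), with a large rise in kidney and overlapping groups in liver.

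The XR-seq log2 ratio of TS over NTS of Zfp382 was 0.91 in kidney, 2.49 in lung and 1.46 in spleen, but -1.32 in liver, with both libraries of liver on the opposite side from those of the other organs. That of Zfp599 was -1.63 in kidney and 0.93 in spleen, again with both libraries of each organ on 1 side. The differences between organs in these ratios were not tested.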

How the results depend on the processing

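Counts of called Zfp genes are given in either direction. In kidney RNA, 14 became 36 without a filter on low counts and 28 against 0. In liver, 0 became 1 with DESeq2 and 3 in 1 fit over the organs. In lung, 2 became 4 without the filter, 0 in 1 fit over the organs and 14 with each library a replicate. The interaction count of 1 became 0 with RLE, 3 without the filter, 5 with each library a replicate and 5 with DESeq2. The untreated count of 116 became 251 with each library a replicate. DESeq2 called 12 members in kidney, 56 in lung and 18 in spleen in Damage-seq strands, and 6 in the Damage-seq NTS organ test. The cause was not tested.

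Leaving out 1 library gave 1 to 49 in kidney RNA, 0 to 24 in liver, 0 to 2 in lung, 0 to 0 in spleen, 0 to 2 in the interaction and 33 to 148 in untreated organs. In Damage-seq strands it gave 0 to 101 in kidney, 69 to 174 in liver, 74 to 113 in lung and 10 to 53 in spleen. In XR-seq strands it gave 267 to 286, 117 to 291, 247 to 314 and 227 to 310 in the same order. The XR-seq TS organ test gave 116 to 217 and the Damage-seq NTS organ test 15 to 52, where 15 and 20 were without kidney replicates 1 and 2 and 21 without liver replicate 1.

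Replicate numbers are shared by the labels only as numbers, and there are 2 per organ. The methods of the study state a batch correction with ComBat, while the labels used here name no batch. The main fits hold no batch term. With the replicate block, kidney RNA gave 67, liver 9, lung 18, spleen 0, the interaction 26, untreated organs 250, the XR-seq TS organ test 158 and the Damage-seq NTS organ test 37. Members that passed in kidney with the block, but not in the main fit, included the silencers Zfp445 and Zfp809. Others were the CCCH genes Zfp36l1 and Zfp36l2, and Zfp598. Zfp36l1 also passed there without the filter on low counts and in the test against 0. In lung Zfp36 and Zfp521 passed with the block but not in the main fit. Same-numbered control and cisplatin libraries correlated in their deviations by 0.182 to 0.559, and across organs by 0.0165 to 0.0869 for XR-seq TS and -0.0531 to 0.0796 for Damage-seq NTS.

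Of the counts under an alternative, 143 stayed within 1.5 times the main count and 53 did not. Of the single genes, 954 results under an alternative stayed on their side of the threshold, 91 lost it, 16 gained it and none reversed among called values. Few Damage-seq reads per gene limit its strand ratios.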
